A study of Mus musculus with 5 samples.

Results

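Exonic binding sites of SOX11 and SOX4 were the peaks whose centre lay in an exon of a protein-coding transcript and outside every promoter, where a promoter ran from 1000 bp upstream to 100 bp downstream of a protein-coding transcription start. Of 21270 SOX11 peaks, 737 met this rule (3.46%, 95% Wilson interval 3.23% to 3.72%), and of 2669 SOX4 peaks, 125 did (4.68%, 3.94% to 5.55%). The SOX11 sites were split into 247 in 5' UTRs, 295 in coding sequence and 195 in 3' UTRs, and the SOX4 sites into 54, 51 and 20 of the same classes. A base that was coding in any transcript counted as coding, and a 5' UTR took precedence over a 3' UTR.

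The study mapped where the transcription factors SOX11 and SOX4 bind in primary mouse keratinocytes by ChIP-seq, in which DNA bound to a protein is pulled down with an antibody and sequenced. All cells were Krt14-Cre;Sox11fl/fl;Sox4fl/fl, a genotype meant to delete both endogenous genes by Cre driven from the keratin 14 promoter. Their background is labelled as mixed 129SvEx:C57BL/6, and by the study's methods the Krt14-Cre mice used in the cross were FVB/N. They carried a lentivirus with a doxycycline-inducible, FLAG-tagged Sox11 or Sox4, and the immunoprecipitation used a mouse anti-FLAG antibody (Sigma). Each factor had 2 replicates combined by the authors in 1 peak list, and the 1 control library, titled as input with IgG given as its antibody, had no list used here. The factors were supplied from a vector and their levels were set by induction, so the sites are those of an induced, tagged protein. How that level compares with the endogenous one was not tested here. The study checked the loss of both genes in knockout epidermis by RT-qPCR. It also measured transcripts of Sox4, Sox11 and Sox12 in keratinocytes of wild-type pups and of littermates with all of these genes knocked out. Keratinocytes lacking Sox11 and Sox4 were profiled by microarray as well. How complete the deletion was in the cells used for ChIP was not tested here. The lists give positions only, without heights or p-values, and library depth is unknown. Intervals and p-values below cover counting over the peaks of a list, which are not replicates of a condition.

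SOX4, SOX11 and SOX12 form the SOXC group of high-mobility-group transcription factors that act in embryonic progenitors. Their DNA-binding domain recognises a short core rich in A and T and bends the helix. Exons differ from other regulatory DNA in that the same bases also encode protein or transcript ends. AP-1, a dimer of FOS and JUN proteins, and the TEAD factors, partners of YAP in Hippo signalling, are transcription factors of keratinocytes with short recognition sequences of their own.

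The following 30-base windows show SOX cores inside exonic peaks. They are the matches nearest the centre of the earliest listed peaks of each exon class, and of a keratinocyte gene, printed 5' to 3' on the strand of the core with the core in capitals. Each label gives the class of the peak's centre, not that of the core. Cores searched were CTTTGTT and CATTGTT for SOX, TGAGTCA and TGACTCA for AP-1 and GGAATG for TEAD, each on both strands of a window around the peak's centre, as wide as most SOX11 peaks. The AP-1 cores are reverse complements of each other.
Usp22 5' UTR: ttgtcccccagCTTTGTTctcgccgccctg
A930004D18Rik 5' UTR: gcttcccagaccCTTTGTTctccaggttgg
Zbtb1 5' UTR: gcagcggaagtcCTTTGTTgcagcgcagtc
Rapgef3 coding exon: aacgagcggctCTTTGTTgtcgacccacag
Lass3 coding exon: gttccaggcagCTTTGTTctcaagagcaac
Camsap1 coding exon: ggcggcggcgtCTTTGTTgcggccgggctg
Fitm2 3' UTR: tcacagttgctCATTGTTctctgcatatca
Fjx1 3' UTR: ctgtgttcgccCTTTGTTccggcgcgcgat
Cd93 3' UTR: agattcagagtCTTTGTTctcagactagag
Abca12 coding exon: gtgaggagtttCTTTGTTttgttttgtcta

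The windows lie in mm9 at chr11:60988442-60988471 (minus strand) for Usp22, chr2:17949466-17949495 (plus) for A930004D18Rik, chr12:77471535-77471564 (plus) for Zbtb1, chr15:97581237-97581266 (minus) for Rapgef3 and chr7:73888540-73888569 (minus) for Lass3. Those of Camsap1, Fitm2, Fjx1, Cd93 and Abca12 are at chr2:25838478-25838507, chr2:163292737-163292766, chr2:102289932-102289961, chr2:148265454-148265483 and chr1:71461058-71461087, all on the minus strand. The Zbtb1 window belongs to a SOX4 peak and the others to SOX11 peaks. In Abca12, which encodes a lipid transporter of the skin barrier, the core fell in the intron beside the exon, and in the other 9 windows it fell within the exon. The middle of the core lay 0 bp from the centre of the Rapgef3 peak, 8 bp from that of Lass3 and 39 bp from that of Camsap1. The same Camsap1 core lay 31 bp to the 5' side of the centre of SOX4 peak 475, which was classed as 5' UTR. The coding label of that window is thus that of the SOX11 centre, and the core itself is not shown to be coding.

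SOX11 peaks were dense in 5' UTRs, while the intervals for coding exons and 3' UTRs held the density of introns. Per Mb of sequence, 5' UTRs held 105 peaks (exact Poisson interval 92.3 to 119), coding exons 8.71 (7.75 to 9.77) and 3' UTRs 7.68 (6.64 to 8.83), beside 8.09 (7.91 to 8.28) in introns and 135 in promoters. First exons of a transcript held 54.0 peaks per Mb (48.7 to 59.7) and later exons 6.53 (5.87 to 7.24), which lay below introns. Exons as a whole held 12.0 per Mb, 1.48 times the density of introns. With the promoter drawn 1 kb to each side of the start, that ratio was 0.860 and the count of exonic SOX11 peaks fell from 737 to 343, so the excess lay within 1 kb of a start.

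**Figure D1:**
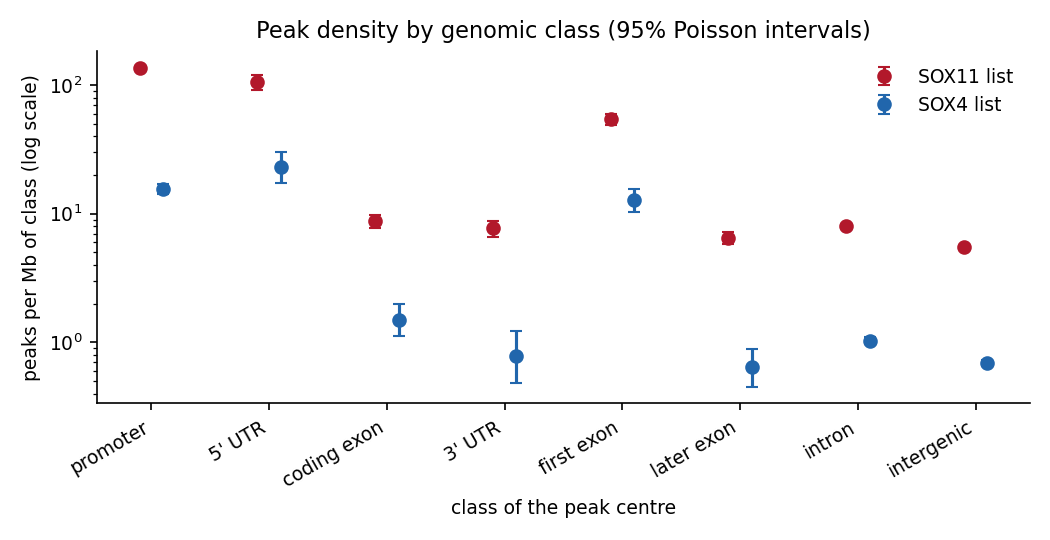
Peaks per Mb of each class of sequence, on a log axis, for the SOX11 list (red) and the SOX4 list (blue), with exact 95% Poisson intervals as bars. SOX11 peaks reached 105 per Mb in 5' UTRs but 6.53 in later exons, below the 8.09 of introns, and SOX4 peaks fell from 22.9 in 5' UTRs to 0.642 in later exons.

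Apart from promoters, SOX4 sites were spread in the same order, with 22.9 per Mb in 5' UTRs (17.2 to 29.9), 1.51 in coding exons (1.12 to 1.98), 0.788 in 3' UTRs (0.481 to 1.22) and 1.03 in introns. Promoters held 15.6 SOX4 peaks per Mb (14.3 to 16.9), fewer than 5' UTRs, whereas for SOX11 they held more. A first exon held 72.0% of the exonic SOX4 peaks and 51.7% of the exonic SOX11 peaks. The median distance to the nearest start was 254 bp for the SOX4 sites and 564 bp for the SOX11 sites. Among SOX11 sites it was 187 bp in 5' UTRs, 922 bp in coding exons and 10915 bp in 3' UTRs. Of the 737 sites, 112 lay over 100 and up to 150 bp from a start, just outside the promoter rule.

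In coding sequence the sites fell toward the 5' end of the reading frame. Of 295 SOX11 sites, 147 were in the first 20% of the coding sequence, 43, 21 and 46 in the next 3 stretches of that size and 38 in the last. Over 1 kb from any start, 142 coding sites were left, with 32, 20, 16, 41 and 33 in the 5 stretches, and the 5' end held 22.5% of them. The median length of the host exon was 262 bp for coding, 427 bp for 5' UTR and 2192 bp for 3' UTR sites. Over 264685 annotated exons the median was 138 bp, and the exon that holds the middle exonic base was 932 bp long. Weighed by length in that way, hosts of 3' UTR sites were longer than exons in general and those of coding and 5' UTR sites shorter. That reference pooled all classes of exon, so it does not show whether hosts were long or short for their own class. A coding site was rarely wholly exonic, with 26.1% of such peaks lying fully in exon sequence, against 90.3% of 3' UTR peaks. The last exon of the host transcript held 98.5% of the 3' UTR sites. For 82 of these 195 (42.1%), the nearest transcription start belonged to another gene, and the same held for 41 of 295 coding sites and for 0 of 247 in 5' UTRs, with a Wilson limit of 1.53%.

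The 737 SOX11 sites lay in 727 genes, or 3.27% of the 22232 annotated protein-coding gene symbols. Of these genes, 717 held 1 site and 10 held 2, and no gene held more. The 125 SOX4 sites lay in 125 genes, of which 74 also hosted a SOX11 site. Since no score is given, the place of a peak in its list is described only as a place, and what orders the lists is not stated.

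The earliest exonic SOX11 peaks were mostly in transcript ends. The peak listed as number 22 lay in the 5' UTR of Smarce1, a subunit of the SWI/SNF remodelling complex (chr11:99091635-99091892, exon 1 of 11), and overlapped SOX4 peak number 30. It held no SOX core, nor did the next, number 50 in the 5' UTR of 2310037I24Rik. Numbers 115, 122, 133 and 134 lay in 3' UTRs, of Fitm2 (a lipid-droplet protein of the endoplasmic reticulum), Fjx1, Pgpep1 (a peptidase) and Cd93 (a surface glycoprotein of endothelial and myeloid cells). Number 155 was in the 5' UTR of Usp22, a deubiquitinase of the SAGA complex, 102 bp from the start. The 3 left of the 10 earliest were in coding exon 19 of 28 of Rapgef3, a cAMP-activated exchange factor for Rap (number 208), and in the 5' UTRs of the collagen receptor Ddr1 (220) and of A930004D18Rik (252). Of these 10 peaks, 6 held a SOX core and 7 overlapped a SOX4 peak, beside 40.1% and 35.6% of all peaks in the first 25% of the SOX11 list. In its last 25% the shares of all peaks were 22.8% and 2.18%. The 10 stood at the very front, at numbers 22 to 252, so that first stretch is not matched to them in place. Among 3' UTR sites the fifth was in Igsf3 (number 289), 84942 bp from the start of the gene. It held an AP-1 core and no SOX core. The coding sites after Rapgef3 were in Lass3 (444), Camsap1 (576), Map4k4 (743) and Sox11 itself (933). Lass3 encodes a ceramide synthase, Camsap1 a protein of microtubule minus ends and Map4k4 a kinase of the STE20 family.

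The 10 earliest exonic SOX4 peaks all overlapped a SOX11 peak, as did 94.5% of all SOX4 peaks. They lay in coding exons of Xkr7 (number 16), Iqsec3 (51), Insm2 (56), Celsr3 (68) and Vgf (101), in the 5' UTRs of Smarce1 (30), 2310037I24Rik (82) and Zbtb1 (138), and in the 3' UTRs of Cd93 (58) and Igsf3 (193). Insm2 encodes a zinc finger protein and Celsr3 an atypical cadherin. Of these 10, the peaks of Cd93 and Zbtb1 held a SOX core, beside 24.8% of exonic SOX4 peaks.

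Sox11 and Sox4 both hosted SOX11 sites in their coding sequence. Each gene has 1 exon. Peaks 933 and 964 lay in Sox11 at chr12:28026246-28026503 and chr12:28026896-28027153, and peak 3954 lay in Sox4 at chr13:29044298-29044555. None of the 3 held a SOX core or overlapped a SOX4 peak, and the SOX4 list had 0 peaks within 10 kb of either gene. According to the study's methods the vectors carry the full open reading frames of these genes, cloned from mouse genomic DNA. In cells with the Sox11 vector, reads from the vector and reads from the locus cannot be told apart over the Sox11 coding sequence. These cells do not carry the Sox4 vector, and peak 3954 lay in the coding exon of a gene that their genotype is meant to delete. Whether the Sox4 locus was still present in some of these cells was not tested here.

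The other genes with a pair of sites were Utrn, Bad, 2310003H01Rik, Iqsec3, Gm5919, Gm1045, Pura, D730040F13Rik and Pard3. In Utrn, which encodes the dystrophin homologue utrophin, the sites were number 367 in the 5' UTR, 118 bp from the start with a SOX core and SOX4 peak 820, and number 18210 in a coding exon with an AP-1 core and no SOX core. Bad, a pro-apoptotic member of the BCL-2 family, had sites in a coding exon (2481) and the 3' UTR (4191), both without any of these cores.

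Few genes of epidermal and signalling lists hosted SOX11 sites, and their shares could not be told apart from that of all genes. The counts were 2 of 65 genes of the actin cytoskeleton and adhesion (3.08%), 2 of 43 of the matrix and its proteases (4.65%), 2 of 54 of epidermal differentiation (3.70%), 4 of 65 of Notch, Wnt, TGF-beta, EGF and Hippo signalling (6.15%), 1 of 29 of the study's embryonic and wound targets (3.45%) and 0 of 32 AP-1 and immediate early genes (up to 10.7%), beside the 3.27% of all symbols. Each Wilson interval held the 3.27%, but the intervals were wide, such as 2.42% to 14.8% for signalling and 0.611% to 17.2% for the study's targets. Equal shares are therefore not shown.

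The adhesion genes were Limd1, a LIM-domain protein of cell junctions, with peak 2547 in the 5' UTR over SOX4 peak 1393, and Vcl, the focal adhesion protein vinculin, with peak 4175 in coding exon 5 of 21. The Vcl peak held an AP-1 core and a TEAD core and overlapped SOX4 peak 2376. In the matrix list, Mmp10 (stromelysin 2) had a site in its 3' UTR, number 11299, with an AP-1 core and no SOX core. In the differentiation list, Abca12 had peak 5699. Of the signalling genes, Egfr had peak 12568 in its first coding exon and Errfi1, a feedback inhibitor of that receptor, peak 17657 in its 5' UTR. Smad3, a mediator of TGF-beta signals, and Ror2, a receptor for Wnt5a, had late listed sites in 3' UTRs (15274 and 20943). Those 4 held neither a SOX core nor an AP-1 core and overlapped no SOX4 peak. Only Btg1, an antiproliferative gene (SOX4 peak 1826), and Lrp6, a Wnt co-receptor (SOX4 peak 1486), hosted SOX4 sites among all 6 lists.

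The target genes that the study tested in reporter assays had no exonic site in either list. The peaks of Tead2 and Fblim1 lay in promoters, those of Marcksl1 and Pxdn in introns, and the Fscn1 gene had none within it. By symbol, Hox genes hosted a SOX11 site in 4 of 39 cases (10.3%, 4.06% to 23.6%), Slc transporters in 14 of 353 (3.97%), Zfp zinc finger genes in 9 of 367 (2.45%), ribosomal protein and kinase symbols starting Rpl or Rps in 4 of 150 (2.67%), Hist genes in 3 of 67 and keratins in 0 of 51 (up to 7%). Beside the 3.27% of all symbols, the Hox interval lay above and the odorant receptors stood low, with 1 of 1113 (0.0898%, up to 0.507%). The intervals of the other families named here held the 3.27%. None of these families was tested.

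Exonic SOX11 sites overlapped a SOX4 peak as often as other SOX11 peaks did. Of all SOX11 peaks, 11.9% overlapped a SOX4 peak by at least 1 bp, and of the exonic ones 90 of 737 did (12.2%, 10.0% to 14.8%). Intronic peaks did so in 12.0% of cases and promoter peaks in 11.3%. The difference from introns was 0.248 percentage points (-2.05 to 2.91; Fisher's exact test, two-sided, p = 0.858, adjusted p = 0.858), and that from promoters 0.870 points (-1.50 to 3.58; p = 0.494, adjusted p = 0.572). P-values were adjusted over the 14 tests made.

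Within exons, the share of SOX11 sites that overlapped a SOX4 peak was highest at the front of genes. It was 17.4% in 5' UTRs (13.2% to 22.6%), 8.81% in coding exons (6.09% to 12.6%) and 10.8% in 3' UTRs (7.15% to 15.9%). First exons shared 58 of 381 SOX11 sites (15.2%) and later exons 32 of 356 (8.99%), with an odds ratio of 1.82 (exact test, p = 0.0129, adjusted p = 0.0165). The call was lost when only the earlier 50% of the list was used, when sharing required centres within 100 bp or 50% of the SOX4 peak, within 45% to 55% GC, and when the promoter was drawn wider. In those 5 cases the odds ratio stayed between 1.44 and 1.75. Coding exons and 3' UTRs differed by -1.96 points (-7.77 to 3.28, exact p = 0.531, adjusted p = 0.572). Their odds ratio of 0.801 fell to 0.436 with the wider promoter and to 0.415 within 45% to 55% GC, again without a call.

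Sharing followed the place in the list. In the first 25% of the SOX11 list, 36.0% of exonic peaks overlapped a SOX4 peak, and in the last 25% 1.18%, beside 35.6% and 2.18% of all SOX11 peaks. Coding sites stood late, with 17.3% of them in its first 25% and 28.5% in its last, while 30.4% of 5' UTR sites were in the first and 16.2% in the last.

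Of the SOX4 peaks in exons, 104 of 125 overlapped a SOX11 peak (83.2%, 75.7% to 88.7%), fewer than the 94.5% of all SOX4 peaks, the 93.3% of intronic ones (91.5% to 94.8%) and the 96.1% of promoter ones (94.1% to 97.4%). This comparison was chosen after its values were seen and was not tested. Exonic SOX4 peaks overlapped in 79.3% of cases within 1 kb of a start (70.0% to 86.4%) and in 93.9% beyond it (80.4% to 98.3%). Among intronic ones 867 of 929 overlapped, and 700 of the 718 over 1 kb from a start (97.5%). Intronic peaks near a start were thus lower as well, so the low share was not particular to exons. The share was 76.5% in coding exons (63.2% to 86.0%), 85.2% in 5' UTRs, and in 3' UTRs 19 of 20 peaks overlapped. Here first exons were lower, at 78.9% of 90 sites (69.4% to 86.0%), and later exons higher, at 94.3% of 35 (81.4% to 98.4%). Of the 90 pairs in which the SOX11 site was exonic, the SOX4 site was exonic as well in 71.

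Exonic SOX4 sites were mostly near starts of genes, with or without a SOX11 peak. Of the 21 without, 19 were in first exons and within 1 kb of a start, and their median GC was 70.5%. Of the 104 with a SOX11 peak, 71 were in first exons, and their median GC was 65.5%. In 5' UTRs the median was lower without a SOX11 peak, at 68.6%, than with one, at 71.3%. A SOX core was in 1 of the 21 and in 28.8% of the 104, beside 46.4% of all SOX4 peaks. An AP-1 core was in 0 of the 21, beside 1 of 90 SOX4 sites in first exons, 7.20% of exonic and 23.3% of all SOX4 peaks. The earliest 10 lay in Golga7b (375), Akap9 (814), Dnlz (1000), Lhfpl4 (1001), Nckap1 (1146), 1810013L24Rik (1184), Cd300e (1329), Smek1 (1436), Lrp6 (1486) and Hnrpll (1502). Nckap1 encodes a subunit of the actin-regulating WAVE complex and Hnrpll an RNA-binding splicing regulator. Only the Hnrpll peak among the 21 held a SOX core, 86 bp from its centre.

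**Figure D2:**
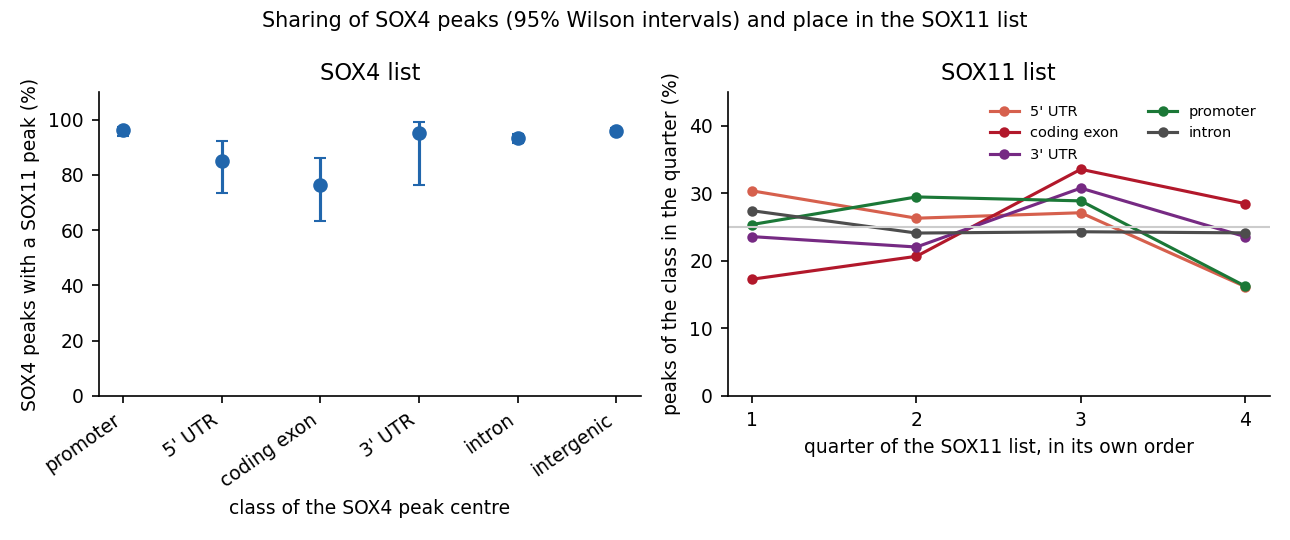
Left, the percentage of SOX4 peaks of each class that overlap a SOX11 peak, with 95% Wilson intervals. Right, the percentage of SOX11 peaks of each class in each successive 25% of the list, where the grey line marks an even spread. Coding exons were lowest on the left, at 76.5%, and on the right held 17.3% of their sites in the first stretch and 28.5% in the last.

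A SOX core was present in 26.6% of all SOX11 peaks and in 19.8% of the exonic ones (146 of 737, 17.1% to 22.8%). Intronic peaks held it in 30.9% of cases and promoter peaks in 13.6%, so exons lay between them when GC was not matched. The odds ratio was 0.553 against introns (p = 1.14e-10, adjusted p = 3.19e-10) and 1.57 against promoters (p = 1.70e-05, adjusted p = 2.97e-05; Fisher's exact tests). By class the share was 18.2% in 5' UTRs (13.9% to 23.5%), 16.6% in coding exons (12.8% to 21.3%) and 26.7% in 3' UTRs (21.0% to 33.3%). Windows of the same width laid across each class held the core in 6.89%, 9.09% and 11.4% of cases.

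The AP-1 core separated the ends of genes more sharply. It was in 28.5% of all SOX11 peaks and in 16.7% of the exonic ones (14.2% to 19.6%), against 32.8% in introns (odds ratio 0.410, exact test, p = 3.09e-21, adjusted p = 1.44e-20) and 5.70% in promoters (odds ratio 3.31, p = 1.93e-21, adjusted p = 1.35e-20). First exons held it in 15 of 381 peaks (3.94%, 2.40% to 6.39%) and later exons in 108 of 356 (30.3%, 25.8% to 35.3%), the odds ratio being 0.0941 (exact test, p = 1.61e-23, adjusted p = 2.25e-22). By class it was in 5.67% of 5' UTR, 15.3% of coding and 32.8% of 3' UTR peaks, beside 3.05%, 3.35% and 3.91% of the class windows. Coding exons and 3' UTRs differed (odds ratio 0.368, exact test, p = 7.52e-06, adjusted p = 1.50e-05), as they did for the SOX core (odds ratio 0.548, p = 0.00859, adjusted p = 0.0120). First and later exons also differed in the SOX core, at 15.7% and 24.2% (odds ratio 0.587, exact test, p = 0.00542, adjusted p = 0.00843). Some of these ratios depended on GC and on the promoter rule. Within 45% to 55% GC, coding exons against 3' UTRs reversed to 1.54 for AP-1 and 1.37 for SOX, and first against later exons reversed to 2.32 for SOX, none of them called. AP-1 between first and later exons kept its direction there, at 0.498, without a call. With the promoter 1 kb to each side, the ratios of coding exons to 3' UTRs were 0.825 for AP-1 and 0.781 for SOX, and those of first to later exons 0.546 for AP-1 and 2.62 for SOX, again with no call. The first 50% of the list also lost both SOX calls, at 0.595 and 0.724. That between coding exons and 3' UTRs was lost too with a 10-letter motif with 1 mismatch (0.811) and within 50 bp of the centre (0.670).

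**Figure D3:**
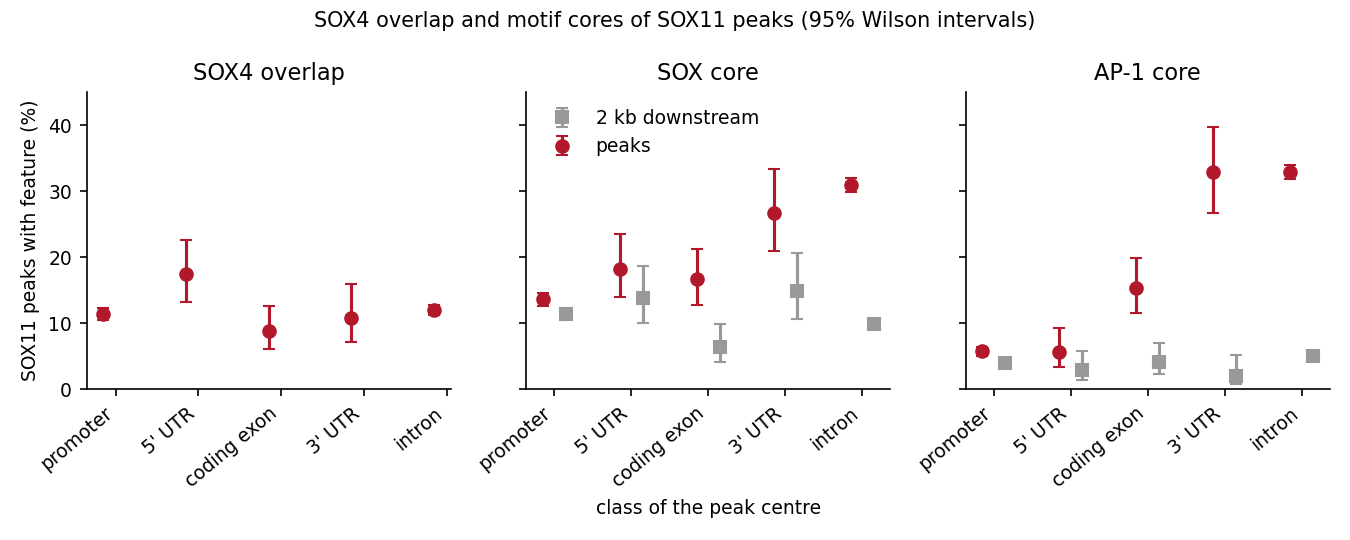
Percentage of SOX11 peaks of each class that overlap a SOX4 peak (left), hold a SOX core (middle) or hold an AP-1 core (right), as red points with 95% Wilson intervals. Grey squares give the same cores in the sequence 2 kb downstream in genome coordinates, whatever the strand of the gene. The AP-1 core rose from 5.67% in 5' UTRs to 32.8% in 3' UTRs, equal to introns, while sharing with SOX4 stayed between 8.81% and 17.4% in exons.

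As a whole, exonic peaks held both cores more often than their own surroundings, which were lower in GC. Downstream here means toward higher genome coordinates, whatever the strand of the gene. Sequence shifted 2 kb in that direction held the SOX core in 82 of 737 cases (11.1%) and the AP-1 core in 23 (3.12%). The core was in the peak alone in 123 pairs and in the shifted sequence alone in 59 for SOX (exact McNemar test, p = 2.40e-06, adjusted p = 5.60e-06), and in 120 and 20 pairs for AP-1 (p = 1.42e-18, adjusted p = 4.97e-18). In first exons the AP-1 core was in 15 of 381 peaks and 14 shifted sequences, and in later exons in 108 of 356 peaks and 9 shifted sequences. For the SOX core the counts were 60 and 41 in first exons and 86 and 41 in later ones. The split by exon was not tested. Mean GC was 60.2% in the peaks and 45.4% in the shifted sequence. In first exons it was 67.2% and 44.4%, and in later exons 52.7% and 46.5%, so the pairs were less alike in GC in first exons. The TEAD core, present in 22.8% of all SOX11 peaks, was in 14.5% of the exonic ones and in 14.2% of their shifted sequence. In 3' UTRs it was in 25.6% of peaks (20.0% to 32.2%) and 12.3% of shifted sequence, and in 5' UTRs in 6.48% and 15.8%.

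Base composition moved with these differences. Median GC was 67.8% in 5' UTR, 62.0% in coding and 50.0% in 3' UTR peaks, beside 50.0% in introns and 64.7% in promoters. Among peaks of 45% to 55% GC, the SOX core was in 25.4% of 193 exonic and 29.0% of 3962 intronic peaks (odds ratio 0.835, exact test, adjusted p = 0.460) and the AP-1 core in 29.5% and 36.8% (odds ratio 0.720, adjusted p = 0.162), so neither difference from introns passed the test there. Against promoters, where the SOX core was in 27.4% of 632 peaks of that GC, the odds ratio for SOX reversed to 0.903 (exact test, adjusted p = 0.693). Of the differences between classes in the cores, that of AP-1 between exons and promoters was still called, at 29.5% and 16.3% (odds ratio 2.15, exact test, adjusted p = 4.86e-04). Over 1 kb from any start, exonic and intronic peaks held the SOX core in 25.9% and 31.0% and the AP-1 core in 30.9% and 36.1%, with an adjusted p of 0.109 for each.

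At higher GC, exons and introns stood apart in some of these features, in bands chosen after the values were seen and not tested. From 55% to 65% GC, the AP-1 core was in 15.7% of 197 exonic peaks (11.3% to 21.5%) and 24.3% of 1319 intronic ones (22.0% to 26.6%), while the intervals for the SOX core overlapped. Those for sharing with SOX4 overlapped too, at 10.2% (6.67% to 15.2%) and 12.0% (10.3% to 13.8%). From 65% GC upward, 10.8% of 279 exonic peaks held a SOX core (7.64% to 14.9%) and 25.9% of 459 intronic ones did (22.1% to 30.1%), beside 8.36% of promoter and 16.0% of intergenic peaks (11.7% to 21.4%). In the same band 15.4% of exonic peaks (11.6% to 20.1%) and 24.2% of intronic peaks (20.5% to 28.3%) overlapped a SOX4 peak, beside 11.4% of promoter and 14.6% of intergenic ones. In both features introns were the highest of the classes in this band, and exons lay near promoters and intergenic sequence. The AP-1 core was in 1.08% of exonic (0.366% to 3.11%) and 3.92% of intronic peaks there (2.49% to 6.11%), with overlapping intervals. It was in 2.19% of promoter peaks and highest in intergenic ones, at 9.59% (6.36% to 14.2%).

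**Figure D4:**
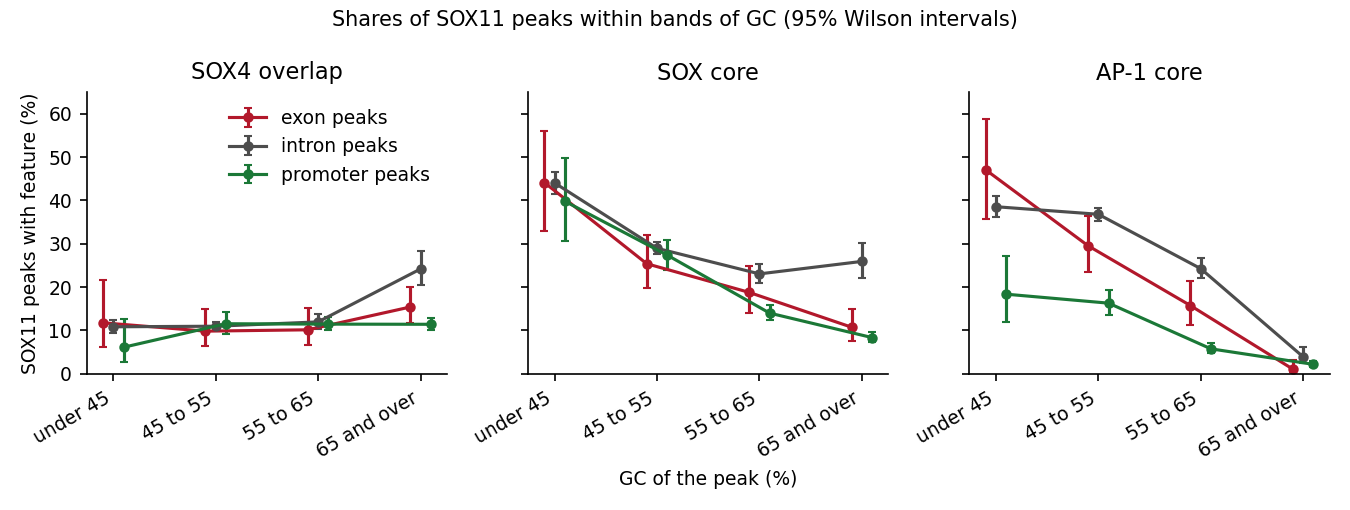
Percentage of SOX11 peaks with a SOX4 overlap, a SOX core or an AP-1 core within 4 bands of GC, for peaks in exons (red), introns (grey) and promoters (green), with 95% Wilson intervals. The SOX core fell from 44.1% to 10.8% of exonic peaks across the bands and from 47.1% to 1.08% for the AP-1 core, and introns stood above exons in the SOX core at the highest band.

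In SOX11 peaks, the SOX core was centred in exons as it was elsewhere. Within 50 bp of the centre, exonic peaks held 1.64 SOX cores per kb (1.36 to 1.96) and from 100 to 150 bp away 0.217 (0.124 to 0.353), beside 2.66 and 0.447 in introns. The nearest core lay within 25 bp of the centre in 58.2% of the exonic peaks that had one (50.1% to 65.9%), and in 62.6% of the intronic ones. The AP-1 core was spread more widely, at 1.02 per kb within 50 bp and 0.638 from 50 to 100 bp. CTTTGTT made up 101 of the 146 nearest SOX cores. In exonic SOX4 peaks, the nearest SOX core lay within 25 bp of the centre in 13 of 31 (41.9%, 26.4% to 59.2%).

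**Figure D5:**
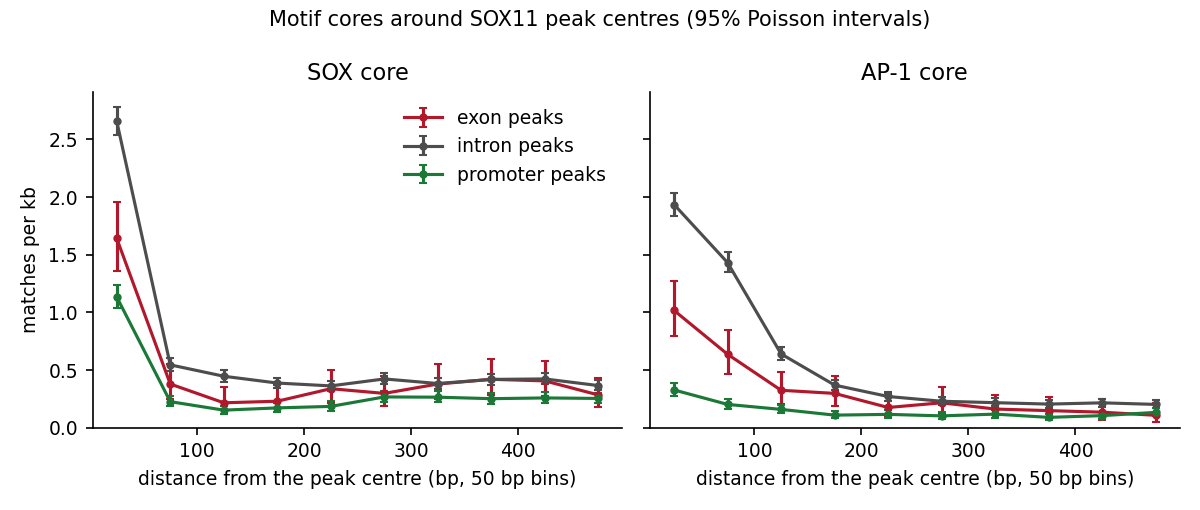
Matches per kb of the SOX core (left) and the AP-1 core (right) against distance from the centre of SOX11 peaks, in bins of 50 bp, for peaks in exons (red), introns (grey) and promoters (green), with exact 95% Poisson intervals. In exonic peaks the SOX core fell from 1.64 to 0.380 per kb by the next bin, and the AP-1 core from 1.02 to 0.638.

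Most cores of exonic peaks were themselves exonic, 128 of 146 (87.7%), among them all 52 of the 3' UTR peaks and 37 of the 49 coding ones. These exonic cores read as CTTTGTT or CATTGTT on the sense strand of the gene in 39 of the 52 3' UTR peaks (75.0%, 61.8% to 84.8%) and in 13 of the 37 coding ones (35.1%, 21.8% to 51.2%). Over the longest 3' UTR of each of 20007 genes the sense strand held 59.6% of 12210 cores, and over the coding sequences 37.3% of 11691. The exonic cores of the peaks could lie in any part of an exon, so the sets are not the same. The 12 cores of coding peaks that lay outside exons were all on the sense strand, and they were not compared with introns at large. This strand comparison was chosen after the values were seen and was not tested.

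Both cores stood together in 26 exonic SOX11 peaks (3.53%), against 8.53% of intronic and 1.06% of promoter peaks. Neither core was found in 494 (67.0%), beside 52.3% of all SOX11 peaks, 44.8% of intronic and 81.8% of promoter peaks. It was 80.6% in first exons, near the share in promoters, and 52.5% in later exons, near that of the whole list. No match says only that these letters were not in this window.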

How the data were processed

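ChIP-seq peak lists of mouse keratinocytes were used, 1 for each factor. Per the submitters' processing notes and the study's methods, Bowtie2 aligned the reads to mm9, Picard served to drop duplicate reads, HOMER to call peaks and bedtools to take out blacklisted regions, and the authors put both replicates in 1 list. Tool versions, thresholds and the control given to HOMER are not given in the sources used here. Each deposited list holds peak coordinates alone, with neither read counts nor a signal. Sonication gave fragments of 100 to 500 bp, which limits how finely a centre can be placed within an exon.

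Starts were read as 0-based. Peaks were placed by their centre with the GENCODE M1 annotation of the same build, in the order promoter, exon, intron, intergenic. A first exon was the first of any protein-coding transcript. Densities were divided by the known bases of each class. Cores were searched in 258 bp around each centre, and base composition was taken over the same width. Shares were compared by Fisher's exact test and a peak with its own sequence 2 kb downstream by an exact McNemar test, both two-sided, with Benjamini-Hochberg adjustment over 14 tests and a threshold of 0.05. The shift followed genome coordinates and not the strand of the gene. Intervals are 95% Wilson, exact Poisson or, for differences, Newcombe intervals. Alternatives changed the promoter, transcripts, exon rule, part of the list, GC, overlap, motif, shift and class order.

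Genes named were the 10 earliest exonic peaks of each list, the 5 earliest SOX11 peaks of each class, the genes with most sites, the 10 earliest SOX4 sites without SOX11, members of 6 gene lists and the reporter targets. Some list members are not reported here. Members and lists were chosen with earlier results of these data known. Python 3.11.15, numpy 2.4.6, scipy 1.17.1, pysam 0.24.0, samtools 1.23.1 and matplotlib 3.10.9 were used. Classes, motif search, overlaps (against bedtools 2.31.1) and Fisher's test were tested on simulated data.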

Additional observations from a re-analysis of the deposited data

How the results depend on the processing

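No paired analysis was possible because both replicates of a factor were combined in 1 list. Of 128 alternative values for the 17 results, 95 kept their direction and their side of the threshold or stayed within their range. The tests of exonic peaks against their own shifted sequence, and AP-1 between exons and promoters, kept theirs under every alternative run. Their odds ratios moved in size. AP-1 against shifted sequence went from 6 to 1.69 with the 10-letter motif and to 17.2 with the promoter 1 kb to each side. SOX went from 2.08 to 1.69 with that motif and to 3.63 within 50 bp of the centre. AP-1 against promoters went from 3.31 to 2.15 within 45% to 55% GC and to 7.04 with that promoter. Values below are odds ratios unless named, and the cause was not tested.

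With the promoter 1 kb to each side, exonic peaks fell to 343 for SOX11 and 33 for SOX4, and the density ratio of exons to introns reversed to 0.860 (1.32 with all transcripts). SOX4 overlap reversed to 0.779 against introns and 0.654 against promoters, and the SOX core between first and later exons to 2.62, with 15 first exons left. The calls were lost for SOX at 0.781 and AP-1 at 0.790 against introns, for coding exons against 3' UTRs at 0.781 and 0.825, and between first and later exons for SOX4 overlap at 1.65 and AP-1 at 0.546. Within 45% to 55% GC, the ratios reversed to 0.885 and 0.836 for SOX4 overlap against introns and promoters, 0.903 for SOX against promoters, 1.37 and 1.54 for SOX and AP-1 in coding exons against 3' UTRs, and 2.32 for SOX between first and later exons. There the calls were lost at 0.835 and 0.720 for SOX and AP-1 against introns, and at 1.75 and 0.498 for SOX4 overlap and AP-1 between first and later exons.

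SOX4 overlap against introns, never called, also reversed with all transcripts (0.994), 50% of the SOX4 peak covered (0.939) and centres within 100 bp (0.951). Overlap between first and later exons lost its call with the first 50% of the list (1.44), 50% covered (1.60) and centres within 100 bp (1.59). SOX between coding exons and 3' UTRs lost its call with the first 50% of the list (0.595), the 10-letter motif with 1 mismatch (0.811) and 50 bp around the centre (0.670), and SOX between first and later exons with the first 50% of the list (0.724). Leaving out the peaks in Sox4 and Sox11, chosen after seeing the data, changed none of the 14 tests. Unknown depth and absent scores limit any finer threshold.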

Other observations

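Some SOX4 sites in exons held an element unlike the SOX core. After the host genes were seen, the peaks were searched for the RE1 element, the recognition sequence of the neuronal repressor REST, as CAGCACC and GGACAG spaced by 2 bases, on both strands. With at most 1 mismatch it was in 0.225% of windows laid across coding exons and in 0 of the sequences shifted 2 kb from the SOX4 sites there. Of those 51 sites themselves, 4 held it (7.84%, 3.09% to 18.5%). Those 4 were in Xkr7, Iqsec3, Chgb (which encodes chromogranin B of secretory granules) and Lhfpl4. It was also in 2 of 20 sites in 3' UTRs (10.0%, 2.79% to 30.1%), those of Tas1r3 and Cd300e, and in 1 of 54 in 5' UTRs (1.85%), that of Golga7b. With at most 2 mismatches the count in coding exons was 7, with Vgf (a neuropeptide precursor), Ccdc88c and Cd55 added, beside 2.33% of the windows. None of the 7 held a SOX core, which was in 17.6% of all 51 coding sites. Of the SOX11 sites in coding exons, 4 of 295 held the element with at most 1 mismatch (1.36%).

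The coding sites with at most 1 mismatch were numbers 16 (Xkr7), 51 (Iqsec3), 734 (Chgb) and 1001 (Lhfpl4) of the SOX4 list, and those added with 2 were numbers 101 (Vgf), 1397 (Ccdc88c) and 2413 (Cd55). Over the whole lists, the element with at most 1 mismatch was in 81 of 2669 SOX4 peaks (3.03%) and 110 of 21270 SOX11 peaks (0.517%). Outside exons, SOX4 peaks held the element in 3.66% of intronic (2.63% to 5.07%), 2.87% of intergenic and 1.68% of promoter cases. The intronic share lay within the interval for coding exons, so the element was not particular to exonic sites. Of the first 100 peaks of the SOX4 list, 24 held it, and its median place in that list was 345. The lists differ in length and what orders them is not stated, so places were not compared between them. Reads of the control library were not analysed here, so whether these places are enriched in it too was not tested.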
